A study of Mus musculus with 6 samples.

Results

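MiR-103 and miR-107 were followed in primary mesangial cells of the mouse, which support the capillaries of the kidney glomerulus. The members were every mature row of the hairpins miR-103-1, miR-103-2 and miR-107, taken from either arm, which gave 5 of the 778 miRNA rows in the table. Of these, the guides miR-103-3p and miR-107-3p passed the filter on low reads and were tested among 408 miRNAs, while the passenger arms miR-103-1-5p, miR-103-2-5p and miR-107-5p did not pass it. All cells grew in high glucose (25.5 mM) with 20% foetal bovine serum and were used at passages 3 to 6. Control was represented by 3 libraries of cells without added cytokine. TGF-b1 was represented by 3 libraries of cells given transforming growth factor β1, a cytokine that drives scarring, at 10 ng/ml for 72 h. The comparison asked how the treatment changed miRNA abundance. Nothing in the labels said whether libraries of a group came from separate cultures, so the p-values measure the spread between these libraries only.

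A miRNA is cut from a hairpin precursor, and 1 arm, the guide, is kept by an Argonaute protein while the passenger arm is usually degraded. The guide finds target mRNAs mainly through its seed, bases 2 to 8. MiR-103 and miR-107 are vertebrate miRNAs that lie in introns of the pantothenate kinase genes (Pank), whose enzymes begin the synthesis of coenzyme A from vitamin B5. They are best known for their roles in insulin sensitivity and for repressing Dicer, the enzyme that makes miRNAs.

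On the NCBIM37 mouse genome, each hairpin lay in intron 5 of the 6 introns of its host transcript, on the strand of the host. Mir103-1 lay at chr11:35595898-35595983 on the plus strand in Pank3, 688 bp after the upstream exon of an intron of 1740 bp. Mir103-2 lay at chr2:131113788-131113873 on the plus strand in Pank2, 454 bp after the upstream exon of an intron of 5801 bp. Mir107 lay at chr19:34895177-34895263 on the minus strand in Pank1, 326 bp after the upstream exon of an intron of 7282 bp. None of the 1, 9 and 3 annotated transcripts of Pank3, Pank2 and Pank1 had an exon over its hairpin, and the genome sequence at all 3 positions equalled the RefSeq hairpin.

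Both miR-103 hairpins give the same guide, which differs from the guide of miR-107 at a single base. The mature sequences below are those of RefSeq (GRCm38.p6), written 5′ to 3′, with the seed in capitals, and are shown because they decide which reads can be told apart.
miR-103-3p: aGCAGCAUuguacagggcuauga
miR-107-3p: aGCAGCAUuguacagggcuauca
miR-103-1-5p: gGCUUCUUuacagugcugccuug
miR-103-2-5p: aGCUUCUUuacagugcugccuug
miR-107-5p: aGCUUCUUuacaguguugccuug
Counted from 1 at the 5′ end, the miR-107-3p guide carries the substitution G22C relative to miR-103-3p. The first 21 of 23 bases are shared, seed included, so a read that ends at or before base 21 matches both guides. Among the 581 rows matched by name to a RefSeq mature sequence, these 2 guides were the only rows with this seed. The passenger arms of miR-103-1 and miR-103-2 differ by G1A, and that of miR-107 differs from miR-103-2-5p by C16U. How the study counted reads that match several miRNAs was not stated, and 0 other rows held values identical to either guide. Some other rows did equal each other. MiR-467a-5p and miR-467b-5p had the same mean (3.43) and the same change between groups (-0.63) on the log2 scale. The same held for miR-486-5p and miR-3107-5p (2.22 and -0.47). A read may therefore have been counted in several rows, and whether this applied to the guides was not tested.

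MiR-103-3p was the more abundant guide and did not differ beyond the spread of the libraries when scaled to library totals, whereas miR-107-3p on the same scale was lower in every TGF-b1 library. Abundance is in RPM, which counts reads per 1000000 sequenced and ignores length, and values of single libraries follow the order of replicates 1 to 3. MiR-103-3p (mmu-miR-103-3p) had 6251, 5953 and 5699.7 RPM under Control, then 6282, 5944 and 5892 RPM under TGF-b1. These ranges overlapped throughout, and it ranked between 14 and 15 of all 778 rows in every library. The means of Control and TGF-b1 were 5968 ± 276 and 6039 ± 212 RPM (SD, n = 3 libraries). On the log2(value + 1) scale the change was 0.018 ± 0.056 (SE), with a 95% interval from -0.11 to 0.15 and a limma adjusted p of 0.807.

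MiR-107-3p (mmu-miR-107-3p) had 2532, 2480.1 and 2293 RPM under Control, then 2113, 1877 and 1749 RPM under TGF-b1. The highest TGF-b1 library lay below the lowest Control library. The means were 2435 ± 126 and 1913 ± 184 RPM (SD, n = 3 libraries), so the mean fell by 21.4%. The log2 change was -0.35 ± 0.08 (SE), with a 95% interval from -0.55 to -0.16 and a limma adjusted p of 0.00998. The call held with library totals and was lost under the 5 other scalings, edgeR with TMM and DESeq2, where the log2 change lay between -0.21 and -0.035. By the same rule (limma adjusted p under 0.05), 49.3% of tested miRNAs were called and 31.9% were called lower. Groups did not overlap for 56.9% of tested miRNAs, and for 36% every TGF-b1 library was below Control, so a fall of this kind was common in the table. Neither guide reached an absolute log2 change above 1, which 12.3% of tested miRNAs did together with the adjusted p. In bulk RNA, fewer cells that express a miRNA and fewer copies per cell cannot be told apart.

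**Figure D1:**
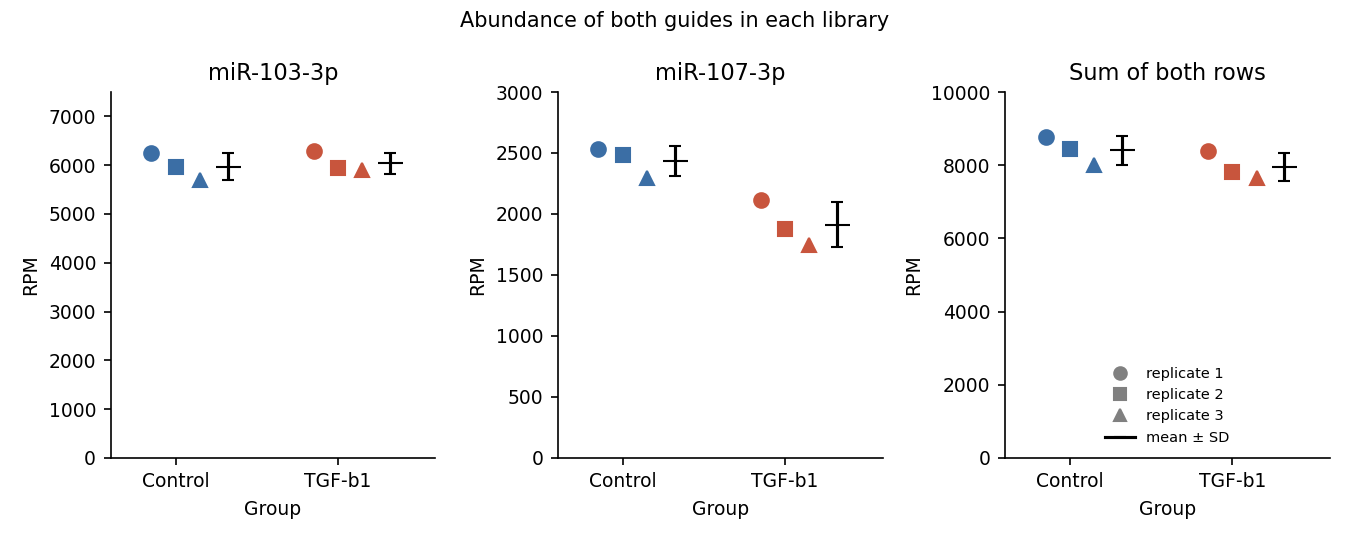
Abundance in RPM (vertical axes, from 0) of miR-103-3p, miR-107-3p and their sum in each Control and TGF-b1 library. Symbols mark replicates and bars the mean ± SD; the TGF-b1 libraries of miR-107-3p, at 1749 to 2113 RPM, lie below the Control libraries, at 2293 to 2532 RPM, while the other panels overlap.

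The ratio of the guides was lower in every TGF-b1 library than in every Control library, and this quantity does not depend on how libraries are scaled. MiR-107-3p stood at 0.405, 0.417 and 0.402 of miR-103-3p under Control and at 0.336, 0.316 and 0.297 under TGF-b1. The groups were separate, with means of 0.408 ± 0.0076 and 0.316 ± 0.0197 (SD, n = 3 libraries). The mean log2 ratio was lower by 0.37 in TGF-b1 (difference -0.37, exact two-sided permutation p = 0.1, the smallest that 3 against 3 libraries allow, and 0.2 after Benjamini-Hochberg adjustment over 4 ratios and sums). With every miRNA expressed relative to miR-103-3p of the same library, a fit chosen after seeing the data, miR-107-3p had a log2 change of -0.37 ± 0.07 (SE) and a limma adjusted p of 0.00343 over 407 miRNAs, of which 33.9% were called lower.

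As a share of the reads of both guides, miR-107-3p made up 28.8% (exact 95% binomial interval 28.6 to 29.1), 29.4% (29.2 to 29.6) and 28.7% (28.5 to 28.9) under Control. Under TGF-b1 the shares were 25.2% (25.0 to 25.4), 24.0% (23.8 to 24.2) and 22.9% (22.7 to 23.1). The mean shares were 29.0% ± 0.383 without and 24.0% ± 1.14 with the cytokine (SD, n = 3 libraries). In both groups the libraries were spread more widely than the counting intervals. The interval of Control replicate 2 lay above those of the other Control libraries, and the TGF-b1 intervals did not overlap each other. These intervals rest on 29890 to 42614 reads of miR-107-3p and 99298 to 126704 reads of miR-103-3p per library and cover counting error only. The shares and intervals take each read as counted in a single row, and do not hold as written if short reads were counted in both.

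**Figure D2:**
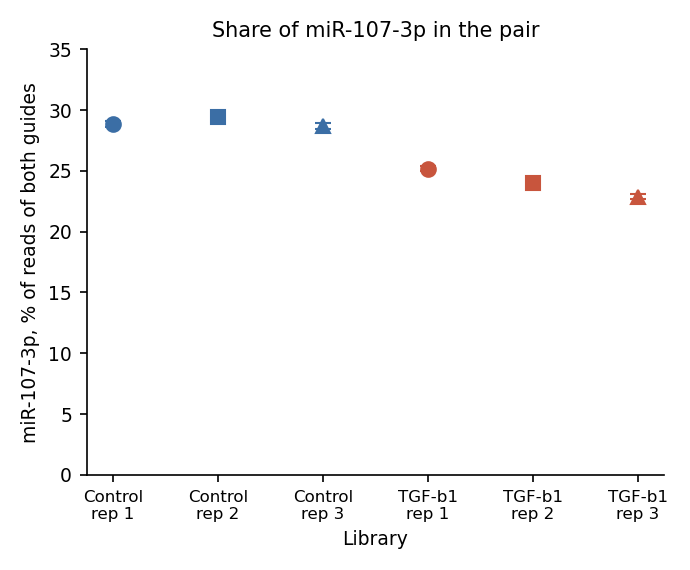
Share of miR-107-3p in the reads of both guides (vertical axis, percent, from 0) for each library, with exact 95% binomial intervals that are near the size of the symbols. The Control libraries lie between 28.7% and 29.4% and the TGF-b1 libraries between 22.9% and 25.2%.

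If each read was assigned to a single row, the sum of both guides does not depend on which row that was. Reads counted in both rows would enter the sum more than once. The sum was 8784, 8433 and 7993 RPM under Control and 8395, 7821 and 7641 RPM under TGF-b1. The groups overlapped, with means of 8403 ± 396 and 7952.5 ± 394 RPM (SD, n = 3 libraries) and a mean log2 difference of -0.080 (exact two-sided permutation p = 0.2, adjusted 0.267). The direction held with library totals only, since the 5 other scalings gave differences of 0.060 to 0.24. If short reads were counted in both rows, they cancel in the difference of the rows, a quantity chosen after seeing the data. MiR-103-3p exceeded miR-107-3p by 3719, 3472 and 3407 RPM under Control and by 4169, 4066 and 4143 RPM under TGF-b1. Every TGF-b1 library was above every Control library, with means of 3533 ± 165 and 4126 ± 53.3 RPM (SD, n = 3 libraries, exact two-sided permutation p = 0.1).

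Which of the guides was called depended on the scaling. With library totals the 408 tested miRNAs had a median log2 change of -0.17, so miR-103-3p stood 0.19 above it and miR-107-3p 0.18 below it (difference from the median -0.18). With TMM factors over every row, this median was -0.03, miR-103-3p was called higher at 0.23 ± 0.07 on the log2 scale (SE, limma adjusted p = 0.0179), and miR-107-3p was not called, at -0.14 ± 0.08 (SE, limma adjusted p = 0.193). Under that scaling 98 tested miRNAs (24%) were called higher and 94 lower, against 71 and 130 with library totals. With TMM factors over the tested miRNAs, chosen after seeing the data, neither was called (0.17 with limma adjusted p = 0.0914 for miR-103-3p and -0.20 with 0.11 for miR-107-3p). A scaling shifts all miRNAs of a library alike, so the distance between the guides stays as it was. The reads outside the rows took 20.2 to 20.5% of the Control libraries and 26.9 to 28.4% of the TGF-b1 libraries. These shares are lower bounds if some reads were counted in several rows. When scaled to the sum of the listed rows instead, miR-103-3p was at 0.16 (limma adjusted p = 0.058) and miR-107-3p at -0.21 (limma adjusted p = 0.0833).

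**Figure D3:**
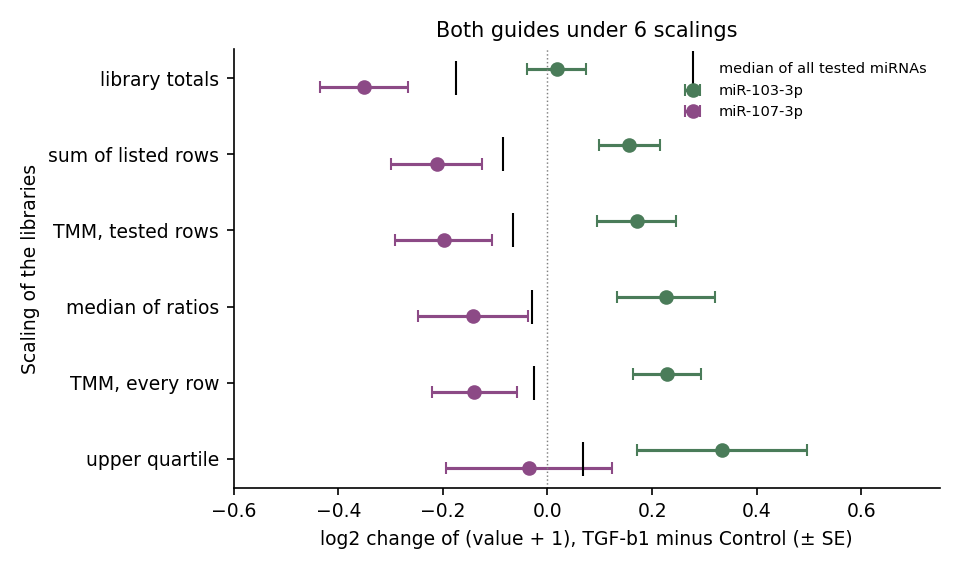
Log2 change of (value + 1), TGF-b1 minus Control, of both guides (points, with bars of ± SE) under 6 scalings of the libraries, with the median of all tested miRNAs as a black tick. The points shift together from 0.018 and -0.35 with library totals to 0.33 and -0.04 with the upper quartile, on either side of the tick.

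The passenger arms were close to the limit of detection. MiR-103-1-5p, the only mature product here that belongs to the Pank3 hairpin alone, was read 5, 4 and 0 times under Control and 0, 1 and 8 times under TGF-b1. MiR-103-2-5p, from the Pank2 hairpin, was read 5, 6 and 4 times under Control and 5, 6 and 7 times under TGF-b1. MiR-107-5p, from the Pank1 hairpin, was read 0, 1 and 0 times under Control and 0, 1 and 3 times under TGF-b1. The groups overlapped for each arm, and a library with 0 reads allows up to 3 reads, or 0.149 to 0.182 RPM.

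Over all 6 libraries the miR-103 passenger arms gave 51 reads against 636620 of the guide, 0.00801% of the reads of the arms (exact 95% binomial interval 0.00596 to 0.0105). The miR-107 passenger arm gave 5 reads against 229649, or 0.00218% (0.000707 to 0.00508). The log2 ratio of guide to passenger, with 1 RPM added to each, averaged 11.99 ± 0.169 and 11.99 ± 0.346 for miR-103 under Control and TGF-b1 (SD, n = 3 libraries, exact two-sided permutation p = 1). For miR-107 it was 11.2 ± 0.0756 and 10.8 ± 0.253 (SD, n = 3 libraries), a difference of -0.43 (exact two-sided permutation p = 0.1, adjusted 0.2 over 2 ratios), and with 0.1 RPM added the difference was -0.83 (exact two-sided permutation p = 0.2). The ratio of miR-107 thus moved with the amount added, and a change in the passenger arms was not detectable at this depth. The miR-107 passenger arm had at most 0.176 RPM, below the 1 RPM added, so this ratio mostly followed the guide. For the same reason its level cannot be compared with that of miR-103.

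The hexamer AGCAGC near the 5′ end of both guides is shared by a wider set, called the AGCAGC group here (miR-15a, miR-15b, miR-16, miR-195, miR-322, miR-497 and miR-503), whose members are known for targeting cell cycle and metabolic genes. The hexamer begins at base 1 in miR-103-3p and miR-107-3p and at base 2 in the others, so the seeds are offset by a base. The guides of the group are shown with their seeds in capitals to make this offset visible; RefSeq lists the rows miR-195-5p and miR-497-5p as miR-195a-5p and miR-497a-5p.
miR-15a-5p: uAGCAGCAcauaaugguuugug
miR-15b-5p: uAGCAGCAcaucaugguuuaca
miR-16-5p: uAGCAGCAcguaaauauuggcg
miR-195-5p: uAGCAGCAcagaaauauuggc
miR-322-5p: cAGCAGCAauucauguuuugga
miR-497-5p: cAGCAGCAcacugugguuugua
miR-503-5p: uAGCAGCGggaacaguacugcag
The hexamer was found within bases 1 to 9 of 7 of the 581 rows with a matched sequence (1.20%, guide strand only): both members and 5 of this group, since the rows of miR-195-5p and miR-497-5p were matched only through the RefSeq names.

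Of the 7 listed miRNAs of the group, 5 were tested, and 5 were lower after TGF-β1 and 0 higher, against 31.9% lower and 17.4% higher over all tested miRNAs. Their median log2 change was -0.99, against -0.17 for all tested miRNAs, and -0.35 for miR-107-3p. MiR-503-5p had 714, 751 and 688 RPM under Control and 152, 134 and 143 RPM under TGF-b1, which is -2.32 ± 0.09 on the log2 scale (SE, limma adjusted p = 2.67e-06). MiR-322-5p, from the same X-linked cluster, had 47.4, 40.5 and 35.5 RPM against 9.42, 12.4 and 13.4, or -1.73 ± 0.17 on the log2 scale (SE, limma adjusted p = 0.000206). In neither did the groups overlap, and both passed an absolute log2 change above 1 with the adjusted p, as 7.84% of tested miRNAs did in this direction.

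MiR-16-5p, a repressor of cyclins, had 189, 193 and 179 RPM under Control and 100.4, 99.6 and 136 RPM under TGF-b1, or -0.75 ± 0.14 on the log2 scale (SE, limma adjusted p = 0.00346). With upper-quartile scaling it was not called (-0.44, limma adjusted p = 0.0694). MiR-15a-5p and miR-15b-5p, which share hairpin clusters with miR-16, fell from 29.2 ± 7.03 to 14.0 ± 1.38 RPM and from 35.6 ± 4.38 to 20.1 ± 2.94 RPM (SD, n = 3 libraries), or by -0.99 and -0.80 on the log2 scale (limma adjusted p = 0.00348 and 0.00412). MiR-195-5p and miR-497-5p had 1 to 10 and 3 to 12 reads per library and were not tested. Their reads did not go down. MiR-195-5p had 8 reads in all Control libraries and 18 in all TGF-b1 libraries, and miR-497-5p had 19 and 33. In both miRNAs the groups overlapped. By RPM, miR-103-3p and miR-107-3p were above every other miRNA of the group in each library, and the mature lengths span only 21 to 23 bases.

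**Figure D4:**
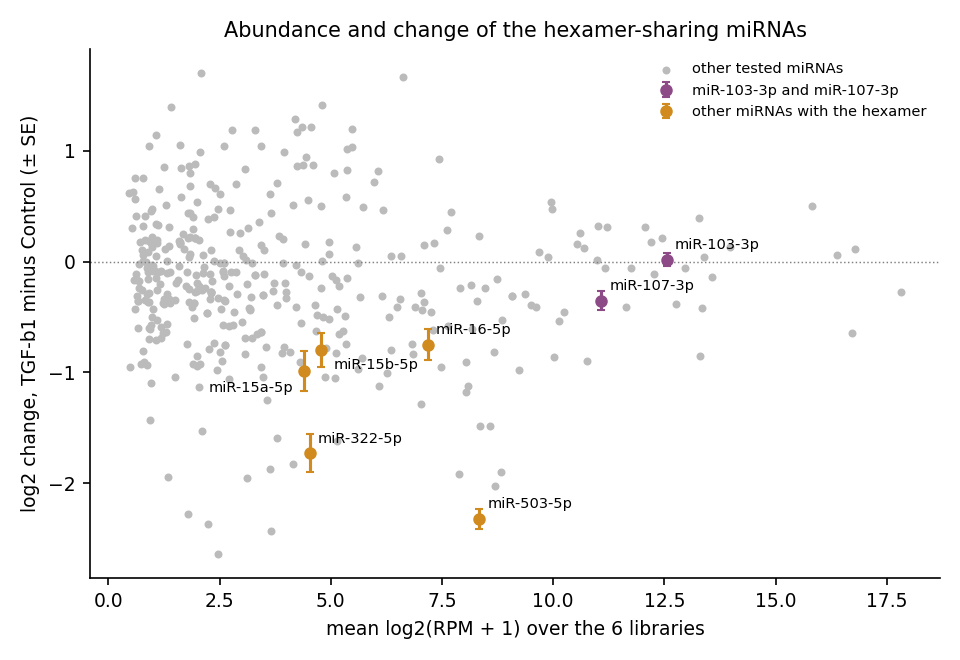
Mean log2(RPM + 1) over the 6 libraries (horizontal axis) against the log2 change, TGF-b1 minus Control (vertical axis), for the 408 tested miRNAs (grey), with bars of ± SE on the coloured points. MiR-103-3p at 0.018 and miR-107-3p at -0.35 (purple) sit right of and above the 5 tested miRNAs of the AGCAGC group (orange, other miRNAs with the hexamer), which lie between -2.32 and -0.75.

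Other miRNAs best known from lipid and insulin biology were called in both directions. Of 9 listed, 8 had a row analysed here, 6 were tested, 2 were lower and 1 was higher, near the 31.9% and 17.4% over all tested miRNAs, and the median log2 change was -0.36 against -0.17. MiR-378-3p, which lies in an intron of the mitochondrial coactivator gene Ppargc1b, had 387, 436 and 367 RPM under Control and 179.7, 167 and 178 RPM under TGF-b1. Its groups were far apart, at -1.17 ± 0.10 on the log2 scale (SE, limma adjusted p = 6.05e-05). MiR-122-5p, the chief miRNA of hepatocytes, was lower at 13.5 ± 0.406 against 26.1 ± 1.72 RPM (SD, n = 3 libraries), a log2 change of -0.90 (limma adjusted p = 0.000763).

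MiR-29a-3p, known for targeting collagens and insulin signalling, was near miR-103-3p in abundance, with means of 5188 ± 277 and 6009.6 ± 394 RPM under Control and TGF-b1 (SD, n = 3 libraries). It was called higher at 0.21 ± 0.07 on the log2 scale (SE, limma adjusted p = 0.032). This call was lost without any of Control replicate 1, Control replicate 3, TGF-b1 replicate 2 or TGF-b1 replicate 3 (limma adjusted p between 0.0776 and 0.104) and with a replicate block (limma adjusted p = 0.0601). Under the 5 other scalings miR-29a-3p was called higher at 0.35 to 0.53 (limma adjusted p 0.00211 to 0.0199). MiR-33-5p, which lies in the sterol regulator gene Srebf2, miR-34a-5p and miR-143-3p were not called, at -0.49, -0.22 and 0.010 on the log2 scale (limma adjusted p = 0.12, 0.413 and 0.945). Without TGF-b1 replicate 1, miR-33-5p was called at -0.75 (limma adjusted p = 0.00935). MiR-33-3p and miR-378-5p were too low to be tested.

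The guides of the pair were not among each other's nearest profiles over the 6 libraries. Likeness was the root mean square distance between log2(value + 1) profiles, each centred on its own mean, among the 78 other tested miRNAs with a mean of at least 100 RPM. The difference between Control and TGF-b1 is part of each profile, so a near profile has a similar log2 change by selection. The nearest to miR-103-3p were let-7d-5p, miR-98-5p and miR-206-3p, at distances of 0.051, 0.053 and 0.065 on the log2 scale. Their log2 changes were 0.045, -0.061 and -0.058, and none was called (limma adjusted p = 0.42, 0.626 and 0.42). MiR-107-3p was number 31 in this order, at a distance of 0.19.

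The nearest to miR-107-3p were miR-744-5p, miR-99a-5p and miR-140-3p, at distances of 0.042, 0.048 and 0.048. MiR-744-5p went from 904.6 ± 45.9 to 684.1 ± 59.2 RPM, miR-99a-5p from 353.4 ± 12.8 to 275.7 ± 17.5 RPM and miR-140-3p from 7877 ± 528.5 to 6053 ± 264.8 RPM (SD, n = 3 libraries). All were called lower, by -0.41, -0.36 and -0.38 on the log2 scale (limma adjusted p = 0.00704, 0.0106 and 0.00235). Changes close to that of miR-107-3p follow from the selection by likeness and are not a separate result.

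Library totals were 16478281 to 17623671 reads in Control and 17086815 to 20169254 reads in TGF-b1, at which 1 read was worth 0.0496 to 0.0607 RPM. The table holds no mRNA, so the cell label was checked against marker miRNAs. The 5 mesenchymal and contractile markers summed to 2587 to 2962 RPM in Control and 2609 to 3075 RPM in TGF-b1. Most of this sum was miR-143-3p, while with library totals miR-145-5p was called higher (0.92, limma adjusted p = 0.00235), miR-199a-3p and miR-199a-5p lower (-0.31 and -0.95, limma adjusted p = 0.0219 and 0.00785), and miR-214-3p was not called (-0.20, limma adjusted p = 0.507). Markers of endothelium and of blood cells (2 of 4 listed) summed to at most 0.297 and 0.599 RPM, and 2 neuronal markers to at most 2.40 RPM. The 5 epithelial markers summed to 22.2 to 25.4 RPM in Control and 1.67 to 2.53 RPM in TGF-b1. Most of this was miR-200a-3p, miR-200b-3p and miR-429-3p, since miR-200c-3p and miR-141-3p had at most 2 and 1 reads per library. The liver marker miR-122-5p had 24.2 to 27.3 RPM in Control and 13.1 to 13.9 RPM in TGF-b1. The 3 striated muscle markers summed to 3440 to 3646 RPM in Control and 3285 to 3466 RPM in TGF-b1, nearly all of it miR-206-3p, since miR-133a-3p had at most 0.182 RPM and miR-1a-3p 9.17 to 11.6 RPM. The part of these markers in the results above was not tested.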

How the data were processed

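Small RNA of 6 libraries (3 Control, 3 TGF-b1) was sequenced by the study on an Illumina HiSeq instrument, reads under 18 nt and adaptors were removed, and reads were compared with miRBase version 17 using Bowtie. The authors deposited 1 table of RPM values (reads of a miRNA divided by the library total, per 1000000), a unit they name TPM although no length scaling was found. Totals that turn every value into whole reads were recovered for each library, and 100% of values came out whole (tolerance 0.002 reads). Libraries of a group were distinct (chi-square per degree of freedom 43.2 to 135.2).

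Group was tested on log2(RPM + 1) with limma 3.58.1 in R 4.3.3 (trended prior). The filter was edgeR 4.0.16 filterByExpr at a minimum count of 10, with Benjamini-Hochberg adjustment over all miRNAs kept and calls at an adjusted p under 0.05. The log2(value + 1) scale understates changes of low miRNAs. For sums and ratios an exact permutation test, two-sided, was run in scipy 1.17.1. Alternatives used other scalings, filters, pseudocounts of 0.1 and 10, edgeR and DESeq2 1.42.0 on recovered reads, a replicate block, and each library left out.

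Named miRNAs were all rows of the hairpins, the listed AGCAGC group and lipid and insulin miRNAs, markers, and the 3 nearest profiles of each guide. Members and lists were chosen with earlier results of these data known. Hairpin positions came from GENCODE vM1 on NCBIM37. Rows for 1 lipid and insulin miRNA and 2 blood cell markers were not analysed here.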

Additional observations from a re-analysis of the deposited data

Results flagged for a closer look

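A share of 20.4% ± 0.142 of all reads lay outside the listed rows under Control, and of 27.7% ± 0.752 under TGF-b1 (SD, 3 libraries in each group, exact two-sided permutation p = 0.1, the smallest possible). It is given here because these reads have no row to test and, under TGF-b1, exceed the Control level. They do count in the library totals that scale every RPM value. The shares take each read as counted in a single row, and are lower bounds if some reads were counted in several rows. Scaled to the sum of the listed rows instead, miR-107-3p was at -0.21 on the log2 scale and was not called (limma adjusted p = 0.0833).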

How the results depend on the processing

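The ratio of miR-107-3p to miR-103-3p kept its direction when each library was left out (mean log2 difference -0.41 to -0.32). The call of miR-107-3p was kept under other filters, pseudocounts, edgeR with library totals and each left-out library (log2 change -0.42 to -0.29, limma adjusted p 0.00321 to 0.0418), and lost with TMM (-0.14), median of ratios (-0.14), upper quartile (-0.035), the sum of the listed rows (-0.21), TMM over the tested miRNAs (-0.20), edgeR with TMM (-0.14) and DESeq2 (-0.13). MiR-103-3p was called with TMM (0.23) and edgeR with TMM (0.23), and ranged from -0.015 without Control replicate 3 to 0.052 without Control replicate 1, with -0.011 without TGF-b1 replicate 1. The cause of these differences was not tested.

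The log2 difference of the sum, -0.080, reversed with TMM (0.13), median of ratios (0.13), upper quartile (0.24), the sum of the listed rows (0.060), TMM over the tested miRNAs (0.073), the larger row alone (0.018) and the difference of the rows (0.22), and was -0.12 to -0.047 without single libraries. The guide to passenger ratio of miR-103 changed by -0.15 to 0.19 and that of miR-107 by -0.55 to -0.30 without single libraries.

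Lower calls over all tested miRNAs numbered 130 with library totals, 73 with upper quartile, 72 with DESeq2 and 97 to 135 without single libraries. In the AGCAGC group 5 were lower under every left-out library and 4 with upper quartile. Among lipid and insulin miRNAs, higher calls numbered 0 with no filter or with the replicate block and 0 to 1 without single libraries (in limma with no filter or with the block, 1 at an unadjusted p under 0.05, and 1 at an adjusted p with edgeR on library totals and with DESeq2). MiR-143-3p ranged from -0.091 to 0.072 without single libraries, and miR-34a-5p was 0.085 with upper quartile.

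Libraries that share a replicate number did not deviate together (correlations of same-numbered deviations -0.084, -0.21 and -0.34). With the replicate block, miR-103-3p was at 0.018, miR-107-3p at -0.35 (limma adjusted p = 0.0102), the sum at -0.080 and the ratio at -0.37, miR-33-5p was called at -0.49 (limma adjusted p = 0.0344), and 176 miRNAs were called in place of 201. Depth limits the passenger arms, where 3 reads are 0.149 RPM or more.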
